A study of Mus musculus with 55 samples.

Results

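Pre-mRNA levels of 2 mouse ES cell lines were compared in asynchronous culture: CTCF-AID cells that had received no auxin, in 3 libraries, and CCNA-GFP cells, in 3 libraries. Members were chosen by listing alone: the 9574 genes that appear in the tables of both lines, of 10574 genes listed in either, and 6 of the 55 libraries of the series. The series followed transcription through mitosis and mitotic exit in CCNA-GFP cells, and in CTCF-AID cells with and without depletion of CTCF. The comparison made here sets the starting states of the 2 lines side by side, before any synchronisation and before any depletion.

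Both lines derive from E14Tg2a, an ES line of strain 129/Ola, and were grown in serum and LIF. CCNA-GFP cells carry a fusion of cyclin A and GFP that reports the cell cycle. CTCF-AID cells, the single clone #EN52.9.1, carry an auxin-inducible degron on CTCF, so that the protein is destroyed once auxin (IAA) is given. The control arm of CTCF-AID used here received no IAA, whereas the +IAA arm received 0.5 mM. Neither line had been exposed to RO-3306 or nocodazole, the CDK1 inhibitor and the spindle poison with which mitotic cells were obtained. The 3 libraries of each line are independent replicates per the study's methods. Each line is 1 culture lineage with its own table, so that line, clone, transgene and batch cannot be told apart.

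Pre-mRNA still contains introns and is spliced within minutes of being made, and its level therefore follows ongoing transcription more closely than mature mRNA does. ES cells hold a network of transcription factors around Pou5f1 (Oct4), Sox2 and Nanog that maintains pluripotency. Cultured mouse ES lines are also known to gain or lose chromosomes or parts of them and to vary in DNA methylation and imprinting. DNA copy number was not measured in these samples, and its part in any difference given here was not tested.

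Values are TPM (transcript levels normalised to length and library) of the pre-mRNA of each gene, scaled so that the shared genes sum to the same total in every library. Before scaling that sum ran from 20288 to 28656 in CCNA-GFP and from 20089 to 28130 in CTCF-AID, and shared genes held 98.7–99.1% of the listed signal. The tables hold no read counts, so sequencing depth is unknown, and the spread over the 3 replicates of each line was the only measure of error. A difference is CTCF-AID minus CCNA-GFP on the log2(TPM + 1) scale, which understates the change of genes with low levels. A gene was called when limma gave a Benjamini-Hochberg adjusted p below 0.1 and an absolute difference above 0.2, the thresholds of the study.

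The genes that define the lines and the cell type were looked at first. Ctcf pre-mRNA stood at 5.15, 5.09 and 5.86 TPM in the CCNA-GFP libraries and at 6.69, 7.11 and 7.60 TPM in CTCF-AID. The lines did not overlap, and the difference of 0.35 ± 0.08 (SE, n = 3 and 3) passed the test (limma, adjusted p = 0.0355). It lay near the median of its own chromosome, 0.26 for chromosome 8, and the call was lost when the chromosome median was subtracted or when CCNA-GFP replicate 1 or CTCF-AID replicate 3 was left out (limma, adjusted p up to 0.117). Ccna2, the cyclin A gene, stood at 2.31, 2.09 and 2.21 TPM in CCNA-GFP and at 2.11, 1.95 and 1.98 TPM in CTCF-AID. The difference of −0.09 ± 0.06 did not pass (limma, adjusted p = 0.375) and was 0.01 with another scaling given below.

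The ES identity genes were transcribed in both lines. Pou5f1 stood at 14.8, 9.49 and 12.3 TPM in CCNA-GFP and at 11.4, 7.95 and 11.004 TPM in CTCF-AID, with overlapping groups and a difference of −0.24 ± 0.19 (limma, adjusted p = 0.433). Same-numbered replicates of the lines moved together, and a fit with the replicate number as a block called Pou5f1 lower (limma, adjusted p = 0.0323). Nanog (0.13), Klf4 (0.11) and Esrrb (−0.18) gave differences that did not pass, and Sox2 was listed in neither table. Klf4 changed sign, to −0.09, without CCNA-GFP replicate 2. Zfp42 (Rex1), a marker of naive pluripotency, ranged from 24.1 to 39.3 TPM in CCNA-GFP and from 33.2 to 58.9 TPM in CTCF-AID, a difference of 0.54 on chromosome 8 that did not pass (limma, adjusted p = 0.246) and passed with the block (0.014).

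Markers of other cell types were checked next. Of the lists for cells that could arise by differentiation, mesoderm (6 genes tested), neuroectoderm (3) and trophoblast (4) had no called member, nor did fibroblast feeder markers (3). With the replicate block, 1 neuroectoderm gene was called higher, and of the fibroblast markers 1 higher and 1 lower. Scaling on the autosomes without a shifted region, described below, called 1 gene higher in each of these 2 lists. Their summed levels overlapped between the lines: 0.783–4.82 TPM in CCNA-GFP and 0.942–7.49 TPM in CTCF-AID for mesoderm, 1.85–5.06 and 3.33–5.39 TPM for neuroectoderm, 2.26–9.43 and 3.02–7.95 TPM for trophoblast, and 8.95–11.2 and 8.85–11.8 TPM for fibroblasts. Genes of 2-cell-like cells, a rare state of ES cultures, summed to 13.1–22.1 TPM in CCNA-GFP and 9.77–12.2 TPM in CTCF-AID, with Eif1a lower among 4 tested. Eif1a alone, the gene on chromosome 18, stood at 11.2, 11.8 and 11.1 TPM and then at 8.11, 8.68 and 8.63 TPM. It made up most of these sums, and without it the sums of the lines overlap. Primitive endoderm markers summed to 4.28–5.83 and 3.53–4.08 TPM, with Lama1 lower among 3 tested. Among all genes 14.1% were called higher and 8.72% lower, so that lists this short would hold few calls in any case. In bulk RNA, fewer cells of a type and less RNA per cell cannot be told apart, and the part of these cells in other differences was not tested.

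Over all shared genes, 2184 were called, 22.8% of those tested, with 1349 higher in CTCF-AID (14.1%) and 835 lower (8.72%). At an unadjusted p below 0.05 there were 2960. On the log2(TPM + 1) scale, which understates changes at low levels, differences had a median size of 0.38 among called genes. Extremes were 1.36 and −1.51, and 21 genes lay beyond 1. The 3 values of each line did not overlap for 3441 genes (35.9%). With the replicate block 1955 genes were called higher (20.4%) and 1537 lower (16.1%), and these included all genes called without it. Leaving out 1 library at a time gave 734 to 1416 higher and 321 to 1025 lower. The higher count fell most without CCNA-GFP replicate 1 (734) or 3 (746) and CTCF-AID replicate 1 (810) or 3 (882). The lower count fell to 327, 321, 393 and 360 without the same libraries in that order, and to 548 without CTCF-AID replicate 2. On TPM as deposited, without scaling to an equal sum, 218 genes were called higher and 84 lower, and 51 of the genes named by rule lost their call.

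The called genes were unevenly spread over the genome, and 3 whole chromosomes stood apart. These chromosomes and the segments described below were chosen after their values were seen, from the order of genes along each chromosome, so they are given as a description with no test. On chromosome 1, 261 of 506 genes were called higher and 3 lower, and 88.9% of all its genes had a higher mean in CTCF-AID. On chromosome 8 it was 247 higher and 3 lower of 534 genes, and on chromosome 11 it was 390 higher and 3 lower of 859. The median difference was 0.29, 0.26 and 0.28 on these 3 chromosomes, against −0.05 over the 6218 genes of the 13 autosomes without a shifted region. On those 13 autosomes the median of each ran from −0.07 to −0.04, and each had between 2.24% and 4.37% of its genes called higher and between 9.06% and 13.1% called lower.

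The pattern was present in each library. For every gene at 1 TPM or more, the level in each library was divided by the CCNA-GFP mean, and the median of these ratios over a chromosome was set to 1 on the 13 other autosomes. The CCNA-GFP values then lie near 1 by construction. Chromosome 1 stood at 1.005, 1.022 and 0.964 in the CCNA-GFP libraries and at 1.462, 1.510 and 1.461 in CTCF-AID. Chromosome 8 stood at 0.992, 0.993 and 1.002, then at 1.420, 1.444 and 1.492. Chromosome 11 stood at 0.994, 0.995 and 1.006, then at 1.449, 1.433 and 1.464. The CTCF-AID libraries were thus 1.48-, 1.46- and 1.45-fold higher on average over these chromosomes, and no single library made the difference. The 13 other autosomes stayed between 0.970 and 1.029 in all 6 libraries. They were chosen for having no shifted region in these libraries and were set to 1 together, so values near 1 follow from that choice. The share of the summed TPM of shared genes that chromosome 11 held went from 9.52–9.68% to 12.3–12.8%.

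**Figure D1:**
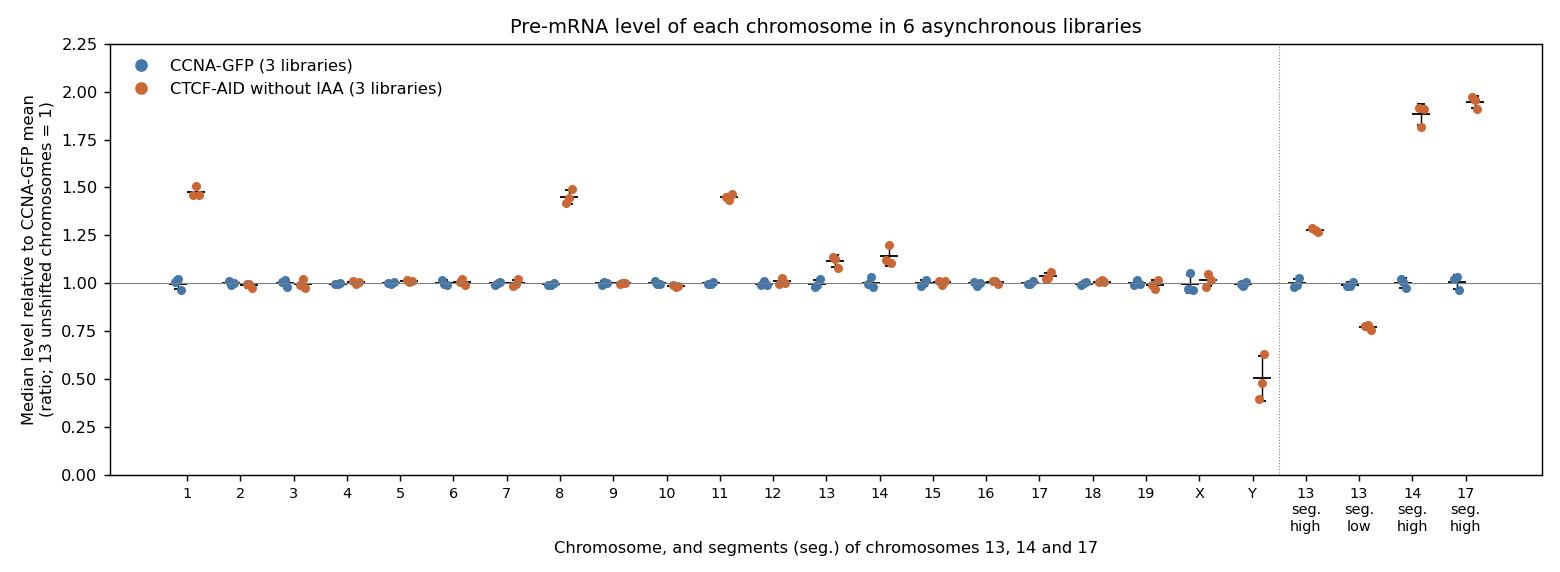
Median pre-mRNA level of each chromosome, and of segments of chromosomes 13, 14 and 17, in each of the 6 asynchronous libraries, as a ratio to the CCNA-GFP mean with the 13 autosomes without a shifted region set to 1. Points are libraries, the bar is the mean and the error bar the SD of 3. Chromosomes 1, 8 and 11 lie between 1.420 and 1.510 in CTCF-AID, and the segments of chromosomes 14 and 17 lie between 1.816 and 1.973. Chromosome Y lies between 0.397 and 0.629, a median over the 3 of its 4 genes at 1 TPM or more. Zfy1, which went the other way, is the gene left out.

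Parts of 3 more chromosomes were shifted as well. On chromosome 13 (GRCm38, the assembly of mm10) the 217 genes from Gdi2 to Slf1, at chr13:3538063-77135473, had a median difference of 0.14, with 49 called higher and 1 lower. Another 98, from Arrdc3 to Zfp131 at chr13:80883384-119790889, had −0.30, with none called higher and 52 called lower. Relative levels in CTCF-AID were 1.290, 1.278 and 1.269 over the first of these and 0.775, 0.782 and 0.754 over the second. On chromosome 14, 117 genes from Wdhd1 to Kctd9, at chr14:47240944-67742310, had a median difference of 0.44, with 86 called higher and none lower, and relative levels of 1.918, 1.816 and 1.911. On chromosome 17 the last 68 genes, from Vapa to Gm20939 at chr17:65578327-94878321, had 0.49, with 54 called higher and 1 lower, and relative levels of 1.973, 1.959 and 1.911. The rest of chromosomes 14 and 17 had medians of −0.03 and −0.04.

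The shifted chromosomes and segments together held 2399 of the shared genes (25.1%), 1087 of the 1349 higher calls (80.6%) and 63 of the 835 lower calls (7.55%). Chromosomes 1, 8 and 11 alone held 898 of the higher calls. Outside all shifted regions, with chromosome Y left out, 256 of 7160 genes were called higher and 768 lower. A fit restricted to those 7160 genes called 123 higher (1.72%) and 387 lower (5.41%).

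**Figure D2:**
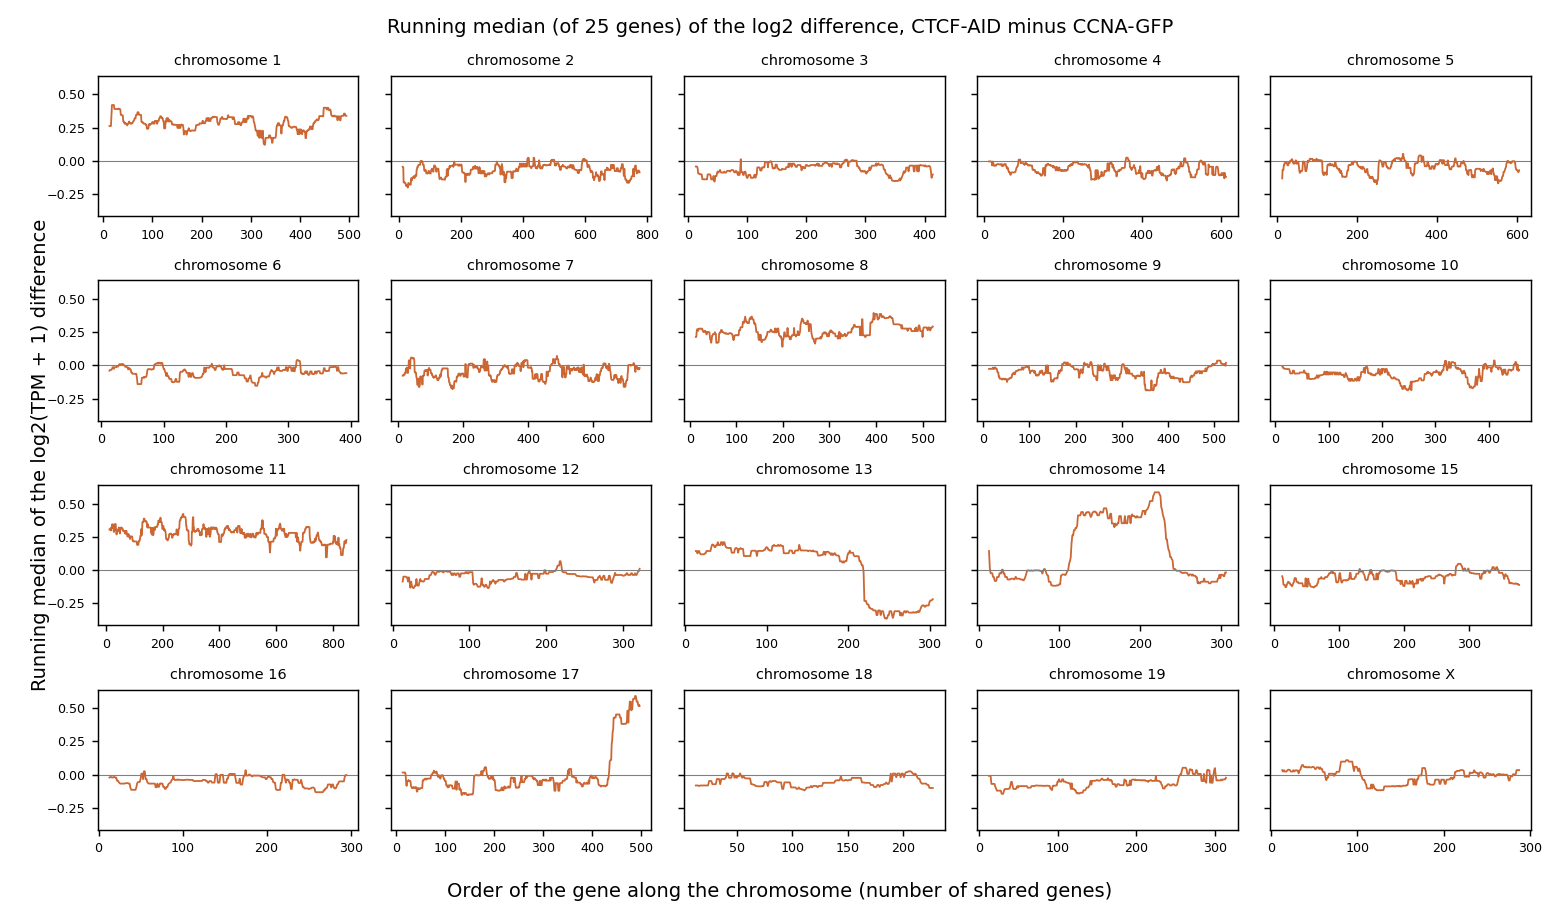
Running median over 25 genes of the log2(TPM + 1) difference, CTCF-AID minus CCNA-GFP, against the order of the genes along each chromosome. The curves of chromosomes 1, 8 and 11 stay above 0 over most of their length, with overall medians of 0.29, 0.26 and 0.28, and those of chromosomes 13, 14 and 17 step at the edges of the segments.

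Which of the remaining genes counted as higher or lower depended on the scaling. With an equal sum in every library, a set of genes that is higher in 1 line lowers the scaled level of all others. Libraries were therefore also scaled on the 13 autosomes without a shifted region, a choice made after the data were seen. This moved the median difference of all genes from −0.003 to 0.08. It gave 2018 higher calls (21.1%) and 397 lower (4.15%), so that the higher share of calls went from 61.8% to 83.6%. Outside the shifted regions it gave 595 higher and 356 lower in place of 256 and 768, turning the higher share from 25% to 62.6%. Medians of chromosomes 1, 8 and 11 became 0.39, 0.35 and 0.37.

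Within the shifted regions single genes departed from their neighbours. On chromosome 1, Tpp2, a large cytosolic peptidase, stood at 3.21, 4.11 and 3.54 TPM in CCNA-GFP and at 7.30, 8.48 and 7.32 TPM in CTCF-AID, a difference of 0.91 ± 0.10. Its neighbour Tex30 had 0.97 and Ppfia4, a liprin of synaptic scaffolds, 1.03. In the other direction Cox20, an assembly factor of cytochrome c oxidase, stood at 4.38, 3.39 and 3.70 TPM and then at 2.2, 2.10 and 1.88 TPM, a difference of −0.65. Sned1 was also called lower on chromosome 1 (−0.62). Eml4 (0.99) and Calm2 (0.90), a calmodulin gene, led the segment of chromosome 17, where Lama1, a laminin chain of the basement membrane, was the 1 gene called lower (−0.64). That call was lost without CCNA-GFP replicate 1 or CTCF-AID replicate 1 (limma, adjusted p up to 0.117). Enc1 (−0.98) and the polymerase gene Polk (−0.85) followed Arrdc3 in the lower segment of chromosome 13.

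Chromosome Y, present in both lines as in the male parent line, was lower in CTCF-AID. Ddx3y, an RNA helicase, stood at 3.04, 2.94 and 3.06 TPM in CCNA-GFP and at 0.741, 1.04 and 1.16 TPM in CTCF-AID, a difference of −1.03 ± 0.09 (limma, adjusted p = 0.00896). Uty, a histone demethylase homologue, differed by −0.82 and Eif2s3y, a translation initiation factor, by −0.54, both called. Zfy1, a zinc finger gene, went the other way, from 0.803, 0.503 and 0.404 TPM to 1.29, 1.06 and 1.43 TPM (0.53, called). No group of these 4 genes overlapped with that of the other line. Chromosome X had a median of −0.01 over 299 genes, with 14 called higher and 18 lower.

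The genes with the largest differences among those called, and without overlap between lines, were of mixed function. Hormad2, a component of meiotic chromosome axes on chromosome 11, stood at 0.602, 0.265 and 0.831 TPM in CCNA-GFP and at 3.38, 2.13 and 3.59 TPM in CTCF-AID, a difference of 1.36 ± 0.19 (limma, adjusted p = 0.0132). Grb10, an imprinted adaptor that restrains insulin receptor signalling, stood at 0.335, 0.477 and 0.498 TPM and then at 1.48, 3.87 and 2.42 TPM (1.27). Trim17 (1.32) shares its strand with the histone gene Hist3h2a, and reads of the 2 may have been exchanged. Cdh3, which encodes P-cadherin, differed by 1.10 on chromosome 8. Hormad2, Trim17, Grb10, Cdh3 and Ppfia4 thus lie on chromosomes 1, 8 and 11.

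The other 5 of the 10 highest genes lie outside the shifted regions. Egr1, an immediate early gene of ERK signalling on chromosome 18, differed by 1.19. Zic2 and Zic5, neighbouring transcription factor genes used as markers of primed pluripotency, differed by 1.07 and 1.00. H2-K1, an MHC class I gene, stood at 0.201, 0.980 and 0.214 TPM and then at 2.07, 2.18 and 1.63 TPM (1.05). Trh, the precursor of thyrotropin-releasing hormone, differed by 1.04. Egr1, Trh and Zic2 each lost their call in 4 of the 6 fits with 1 library left out, with adjusted p up to 0.153, 0.205 and 0.129 in limma, whereas Zic5 and H2-K1 kept it in all 6.

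Among the lowest genes Btbd19, a BTB domain gene on chromosome 4, had the largest difference. It stood at 9.87, 8.56 and 10.8 TPM in CCNA-GFP and at 2.47, 3.39 and 2.43 TPM in CTCF-AID (limma, adjusted p = 0.00896), and at 2.10, 2.89 and 2.17 TPM with IAA. Cox6b2, a testis isoform of a cytochrome c oxidase subunit, stood at 15.3, 14.7 and 11.6 TPM and then at 6.16, 6.0 and 4.05 TPM (−1.22). Arrdc3, an arrestin domain protein of the lower segment of chromosome 13, also differed by −1.22. Cth, the cystathionine gamma-lyase of cysteine synthesis, stood at 3.45, 3.79 and 5.03 TPM and then at 1.01, 2.15 and 1.15 TPM (−1.08). These 4 genes kept their calls with any 1 library left out.

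Of the remaining lowest genes, Ddx3y of chromosome Y kept its call with any 1 library left out, and others did not. Cd80 (−1.14), a co-stimulatory ligand of T cells, lost its call in 3 of the 6 left-out fits, Aard (−1.10) in 5 and Hspb1 (−1.10), a small heat shock protein, in 2, with adjusted p up to 0.114, 0.153 and 0.117 in limma. Rpl39l (−1.20), a ribosomal protein gene with a near-identical paralog, lost it in 4, with adjusted p up to 0.167. Pramef8 (−1.04) kept its call in all 6 and belongs to a multigene family whose reads may have been shared among copies.

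**Figure D3:**
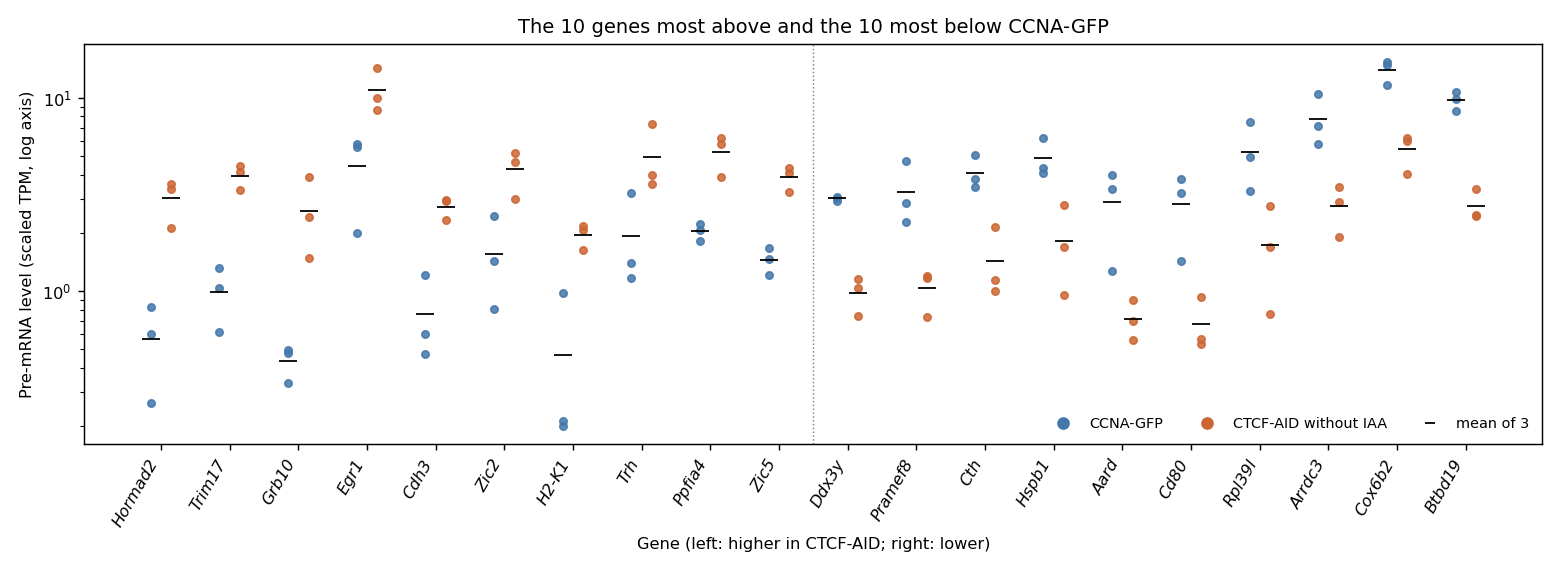
Pre-mRNA level, in scaled TPM on a log axis, of the 10 highest and 10 lowest called genes in each asynchronous library of CCNA-GFP and of CTCF-AID without IAA. Points are libraries and the bar is the mean of 3. Values of the lines do not overlap for any of the 20 genes. Hormad2 runs from 0.265 to 0.831 TPM in CCNA-GFP and from 2.13 to 3.59 TPM in CTCF-AID.

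With the shifted regions included, genes of cholesterol and fatty acid synthesis had the largest share of members called in 1 direction. This holds among the 23 lists with at least 10 genes tested. Of 32 tested, 15 were called higher and none lower, with a median difference of 0.32 against −0.003 over all genes and 14.1% of all genes called higher. Of the 15, 9 lie in the shifted regions. Outside these, 6 of 20 members were called higher, a smaller share than the 8 of 16 p53 target genes called lower there. Fdft1 (squalene synthase), in the chromosome 14 segment, stood at 1.81, 2.2 and 1.69 TPM in CCNA-GFP and at 4.65, 4.50 and 3.92 TPM in CTCF-AID, a difference of 0.89 ± 0.09. On chromosome 11, Srebf1, a transcription factor of lipid synthesis, stood at 2.38, 2.57 and 2.49 TPM and then at 4.86, 4.61 and 4.76 TPM (0.72), and Fasn, the fatty acid synthase, at 2.58, 4.05 and 2.90 TPM and then at 5.15, 6.99 and 5.71 TPM (0.74). Msmo1, a sterol oxidase of chromosome 8, differed by 0.60.

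Outside the shifted regions 6 of 20 members were called higher and none lower, with a median of 0.23, where 3.58% of all genes were called higher and 10.7% lower. They were the desaturases Scd2 (0.75) and Scd1 (0.73), Insig1 (0.61), which retains SREBP in the endoplasmic reticulum, Fdps (0.56), Dhcr7 (0.49) and Lss (0.26). Scd1 stood at 0.535, 0.424 and 0.404 TPM and then at 1.77, 1.34 and 1.18 TPM, without overlap. Scd2 lost its call in 4 of the 6 left-out fits (limma, adjusted p up to 0.220). Left-out fits of the others outside the shifted regions are not given. Among these, Insig1, Lss and Fdps were called at adjusted p of 0.0809, 0.0605 and 0.0553 in limma on all 6 libraries. Hmgcs1, an early enzyme of sterol synthesis in the lower segment of chromosome 13, gave −0.05 and was not called. With scaling on the unshifted autosomes, which called 21.1% of all genes higher, the list had 22 higher and none lower. With the replicate block, which called 20.4% of all genes higher, it had 21 higher and 1 lower.

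The 250 bases upstream of 3 called members are shown because several of these genes are known to be activated by SREBP together with NF-Y, which binds the CCAAT box. They come from RefSeq (GRCm38.p6) and are written 5′ to 3′ on the strand of the gene. Capitals mark the letters CCAAT or, for the other strand, ATTGG. Fasn is at chr11:120824548-120824797 on the minus strand, with 3 boxes, Insig1 at chr5:28071162-28071411 on the plus strand, with 1, and Msmo1 at chr8:64733579-64733828 on the minus strand, with 3.
Fasn: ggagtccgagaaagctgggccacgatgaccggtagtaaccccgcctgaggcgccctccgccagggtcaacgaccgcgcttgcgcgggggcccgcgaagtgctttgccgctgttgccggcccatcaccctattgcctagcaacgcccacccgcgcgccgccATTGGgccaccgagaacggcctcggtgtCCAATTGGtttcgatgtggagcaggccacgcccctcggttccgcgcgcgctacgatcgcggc
Insig1: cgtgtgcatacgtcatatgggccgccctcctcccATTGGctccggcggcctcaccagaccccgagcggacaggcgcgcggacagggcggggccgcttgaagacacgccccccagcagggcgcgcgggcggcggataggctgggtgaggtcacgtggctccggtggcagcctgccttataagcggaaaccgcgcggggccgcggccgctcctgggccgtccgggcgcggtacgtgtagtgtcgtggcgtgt
Msmo1: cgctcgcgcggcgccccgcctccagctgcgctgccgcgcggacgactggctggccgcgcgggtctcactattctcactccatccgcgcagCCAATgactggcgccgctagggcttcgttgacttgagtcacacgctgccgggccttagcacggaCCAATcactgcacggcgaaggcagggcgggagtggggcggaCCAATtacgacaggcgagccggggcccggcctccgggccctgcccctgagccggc

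The box was present upstream of 9 of 11 called members with a RefSeq window (81.8%) and of 10 of 12 members tested and not called (83.3%), against 3201 of 7692 shared genes with a window (41.6%), counting a gene when any of its windows held it on either strand. The sterol regulatory element, searched as TCACNCCAC on both strands, was in none of the 11, in 1 of the 12 and in 99 of the 7692 (1.29%). Called and uncalled members thus held the box at like shares, and missing letters say only that this window does not hold them.

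Target genes of p53, the transcription factor of the DNA damage response, had more lower than higher calls. Of 22 tested, 9 were called lower and 1 higher, with a median of −0.33, against 8.72% of all genes called lower. Gtse1, a regulator of p53 in G2 and S phase, stood at 10.9, 10.0 and 12.7 TPM in CCNA-GFP and at 7.12, 7.34 and 7.16 TPM in CTCF-AID, a difference of −0.57 ± 0.10. Eda2r, a death receptor gene of chromosome X, stood at 4.68, 4.32 and 4.6 TPM and then at 2.22, 3.06 and 1.87 TPM (−0.72). Bax, a pore-forming effector of apoptosis, stood at 6.12, 6.01 and 5.96 TPM and then at 4.54, 4.45 and 4.21 TPM (−0.38). The pro-apoptotic Bbc3 (−0.55), Plk3 (−0.50), Sesn2 (−0.45), Zmat3 (−0.44) and Aen (−0.35) were lower as well, as was Polk, which lies in the lower segment of chromosome 13. Sesn2 lost its call in 5 of the 6 left-out fits (limma, adjusted p up to 0.184) and with scaling on the unshifted autosomes. Eda2r and Polk kept theirs in all 6 left-out fits, and those fits are not given for the other lower members. Among these, Zmat3, Aen and Bbc3 were called at adjusted p of 0.0749, 0.072 and 0.0522 in limma on all 6 libraries.

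Trp53 itself, on chromosome 11, stood at 8.03, 8.74 and 8.64 TPM and then at 12.3, 9.97 and 15.1 TPM, a difference of 0.49 that was called (limma, adjusted p = 0.0682) and lost without CCNA-GFP replicate 1 or 3 or CTCF-AID replicate 1 or 3 (up to 0.186). Outside the shifted regions 8 of 16 members were called lower and none higher, where 10.7% of all genes were called lower. The block gave 14 lower calls in the list, where it called 16.1% of all genes lower in place of 8.72%. Scaling on the unshifted autosomes gave 6, with a median of −0.23, where it called 4.15% of all genes lower.

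Mir34a, which encodes a microRNA that p53 is known to induce, was lower too. Its transcript on chromosome 4 stood at 9.23, 10.5 and 7.74 TPM in CCNA-GFP and at 5.15, 6.12 and 4.19 TPM in CTCF-AID, a difference of −0.72 ± 0.15 (limma, adjusted p = 0.0274). The value is that of the unprocessed transcript, which shares its strand with Gm37795, and mature microRNA was not measured. The mature sequence from RefSeq, at chr4:150068473-150068494 on the plus strand of GRCm38.p6, is shown for the product the gene encodes, with the seed (bases 2 to 8) in capitals.
mmu-miR-34a-5p: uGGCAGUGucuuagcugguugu

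Imprinted genes are expressed from 1 parental allele. Of 28 tested, 4 were called higher (Grb10, Gnas, Commd1 and Igf2r) and 6 lower (Impact, Snurf, Cd81, Kcnq1ot1, Nnat and Blcap), with a median of −0.22. The share called higher was near that of all genes (14.1%), and 8.72% of all genes were called lower. Outside the shifted regions 2 of 25 members were called higher and 6 lower, where 3.58% of all genes were called higher and 10.7% lower. Gnas stood at 1.00, 1.48 and 0.855 TPM and then at 2.34, 3.87 and 2.64 TPM (0.89), a locus with an antisense and several overlapping transcripts. Impact stood at 3.81, 4.98 and 3.73 TPM and then at 2.36, 2.51 and 1.90 TPM (−0.67). Kcnq1ot1, the noncoding RNA of the Kcnq1 domain, differed by −0.51, and Snurf, which overlaps Snrpn, by −0.56. With the block, which called 16.1% of all genes lower, 15 members were called lower in place of 6, among them Peg3 (−0.67; adjusted p = 0.00379 with the block in limma, 0.284 without) and Meg3 (−0.24). With scaling on the unshifted autosomes, which called 21.1% of all genes higher and 4.15% lower, the list gave 5 higher and 5 lower.

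Of 16 genes of DNA methylation and its removal, Dnmt3l, the cofactor of de novo methylation in germ cells, stood at 5.65, 4.35 and 6.01 TPM and then at 3.65, 2.15 and 3.06 TPM (−0.69). Mbd2 was the other called member (−0.20), and none was called higher, against 14.1% of all genes called higher and 8.72% lower. All 16 lie outside the shifted regions, where 3.58% of all genes were called higher and 10.7% lower, and their counts lay near those shares. The Dnmt3l call was lost in 3 of the 6 left-out fits (limma, adjusted p up to 0.133). The Mbd2 call was lost in all 6 (limma, adjusted p from 0.114 to 0.261) and with the other scaling. That scaling gave 4 higher and 1 lower, turning the balance of the counts, and the block gave 9 lower and 3 higher, where these fits called 21.1% and 20.4% of all genes higher and 4.15% and 16.1% lower. Of 11 germline genes known to be silenced by methylation, Rhox5 (0.76) and Sycp3 (0.54) were called higher and Xlr3b (−0.37) lower. Xlr3b lost its call in 5 of the 6 left-out fits (limma, adjusted p up to 0.215) and with the other scaling. Sycp3, of the synaptonemal complex, stood at 0.234, 0.238 and 0.237 TPM and then at 0.893, 0.759 and 0.753 TPM.

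Core and naive pluripotency genes gave 2 lower calls and no higher call among 33 tested, Klf5 (−0.44) and Sall4 (−0.30), with a median of −0.13. Both calls were lost in 5 of the 6 left-out fits (limma, adjusted p up to 0.202 and 0.228) and with the other scaling, and with the block the list gave 7 higher and 9 lower, where 20.4% of all genes were called higher and 16.1% lower. Of 10 primed pluripotency genes, Zic2 and Zic5 were higher and Nodal, a TGF-beta ligand, lower (−0.53). Of 16 genes of CTCF, cohesin and its loading, Ctcf and the cohesin acetyltransferase Esco2 (0.77, in the chromosome 14 segment) were called higher, and the cohesin subunits Rad21 (−0.37) and Smc3 (−0.21) lower. The Rad21 and Smc3 calls were lost in 5 of the 6 left-out fits (limma, adjusted p up to 0.171 and 0.195) and with the other scaling. Against 14.1% of all genes called higher and 8.72% lower, the counts of the cohesin list lay near the background. All 10 primed pluripotency genes lie outside the shifted regions, where 3.58% of all genes were called higher and 10.7% lower. Their 2 higher calls lay above that share, in a list too short to say more. The block gave 5 higher and 3 lower in the primed list and 2 and 3 in the cohesin list.

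The larger families are given against 14.1% of all genes called higher and 8.72% lower. Outside the shifted regions the shares of all genes were 3.58% and 10.7%, with the block over all regions 20.4% and 16.1%, and with the other scaling 21.1% and 4.15%. Of 75 cytosolic ribosomal protein genes, 9 were called higher and 2 lower, and outside the shifted regions none was higher and 2 were lower. Of 80 nuclear genes of the respiratory chain, 7 were called higher and 8 lower, and outside none was higher and 7 lower. Zinc finger genes of the Zfp series gave 22 higher and 19 lower of 269, and solute carriers 24 higher and 15 lower of 171. Outside the shifted regions 7 of 214 Zfp genes were higher and 19 lower, and 4 of 121 solute carriers were higher and 14 lower. With the block these 4 families gave 12 higher and 10 lower, 8 and 19, 36 and 40, and 37 and 27, in the order named. With the other scaling they gave 13 and 2, 8 and 2, 41 and 10, and 43 and 10, and the sign of the median of the ribosomal, respiratory chain and Zfp lists turned. Interferon response genes gave 2 lower of 14, LIF-STAT3 genes 2 lower of 13, and SRF and YAP targets no call among 10. With the block these gave 4 higher and 2 lower, 2 and 2, and 1 and 4, and with the other scaling 1 and 2, 0 and 2, and 1 and 0. Of 27 cyclin and CDK genes, 3 were called higher and 4 lower, and of 29 glycolysis and hypoxia genes, 4 and 2. Of 23 FGF-ERK feedback and immediate early genes, 2 were called higher and 1 lower. The integrated stress response list gave 1 higher and 2 lower of 20, heat shock chaperones 1 and 3 of 16, and metallothionein and oxidative stress genes 1 and 3 of 15. With the block the last 6 lists gave 5 higher and 4 lower, 8 and 4, 3 and 5, 5 and 3, 3 and 3, and 2 and 6. With the other scaling they gave 5 and 3, 6 and 0, 2 and 1, 2 and 1, 3 and 2, and 2 and 2, and the sign of the median turned in all of these 6 except the metallothionein list.

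The called members with the largest differences in the smaller lists, at most 2 in each direction, were as follows. Cyclin D1 (Ccnd1), which drives entry into S phase, stood at 1.77, 2.38 and 1.64 TPM in CCNA-GFP and at 3.76, 3.59 and 3.44 TPM in CTCF-AID (0.66), without overlap. Cyclin D2 (Ccnd2, 0.30) was called higher too, and the retinoblastoma gene Rb1 (−0.53) and cyclin B1 (Ccnb1, −0.51, in the lower segment of chromosome 13) lower. Phlda1 stood at 2.28, 1.72 and 1.66 TPM and then at 0.152, 0.709 and 0.565 TPM (−0.98), again without overlap. Spred2, an inhibitor of ERK signalling, differed by 0.65 on chromosome 11. Of the interferon response genes, Ifitm3 stood at 3.01, 2.07 and 1.95 TPM and then at 0.988, 0.911 and 0.393 TPM (−0.93), and its neighbour in the family Ifitm1 differed by −0.61. In the LIF-STAT3 list the kinase gene Pim3 (−0.74) and Il6st, which encodes the receptor subunit gp130 (−0.41, in the lower segment of chromosome 13), were lower. Of the stress lists, Stc2 on chromosome 11 stood at 0.870, 0.954 and 0.926 TPM and then at 2.34, 2.18 and 2.65 TPM (0.82), and Ddit3 (CHOP) differed by −0.50. Hspa4 (0.50, on chromosome 11) was higher and Hspa14 (−0.43) lower, and Slc30a1, a zinc exporter gene on chromosome 1, was higher (0.44), with Gclm (−0.47) and Nfe2l2 (Nrf2, −0.44) lower. Among glycolysis and hypoxia genes Vegfa (0.63) and Bnip3l (0.61, in the chromosome 14 segment) were higher and Kdm3a (−0.44) and Hk2 (−0.32) lower. Of 9 Wnt targets, Znrf3 (0.78) and Tcf7 (0.68), both on chromosome 11, were the called members, and of 14 BMP and Nodal targets Id3 was higher (0.86) and Smad7 (−0.36) and Nodal lower. Among all genes 14.1% were called higher and 8.72% lower. With the block, which called 20.4% of all genes higher and 16.1% lower, the Wnt list gave 4 higher and 2 lower and the BMP and Nodal list 4 and 4. With the other scaling, which called 21.1% and 4.15%, they gave 2 and 0 and 1 and 1. Calls of Ccnd2, Spred2, Pim3, Ddit3, Vegfa, Kdm3a, Hk2, Slc30a1, Nfe2l2, Ifitm1, Id3 and Smad7 were lost in 1 to 5 of the 6 left-out fits (limma, adjusted p up to 0.220), and those of Kdm3a, Hk2 and Smad7 also with the other scaling. Rb1, Hspa14, Gclm, Nfe2l2 and Tcf7 overlap other annotated genes of the same strand, and reads of the overlapping genes may have been exchanged.

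**Figure D4:**
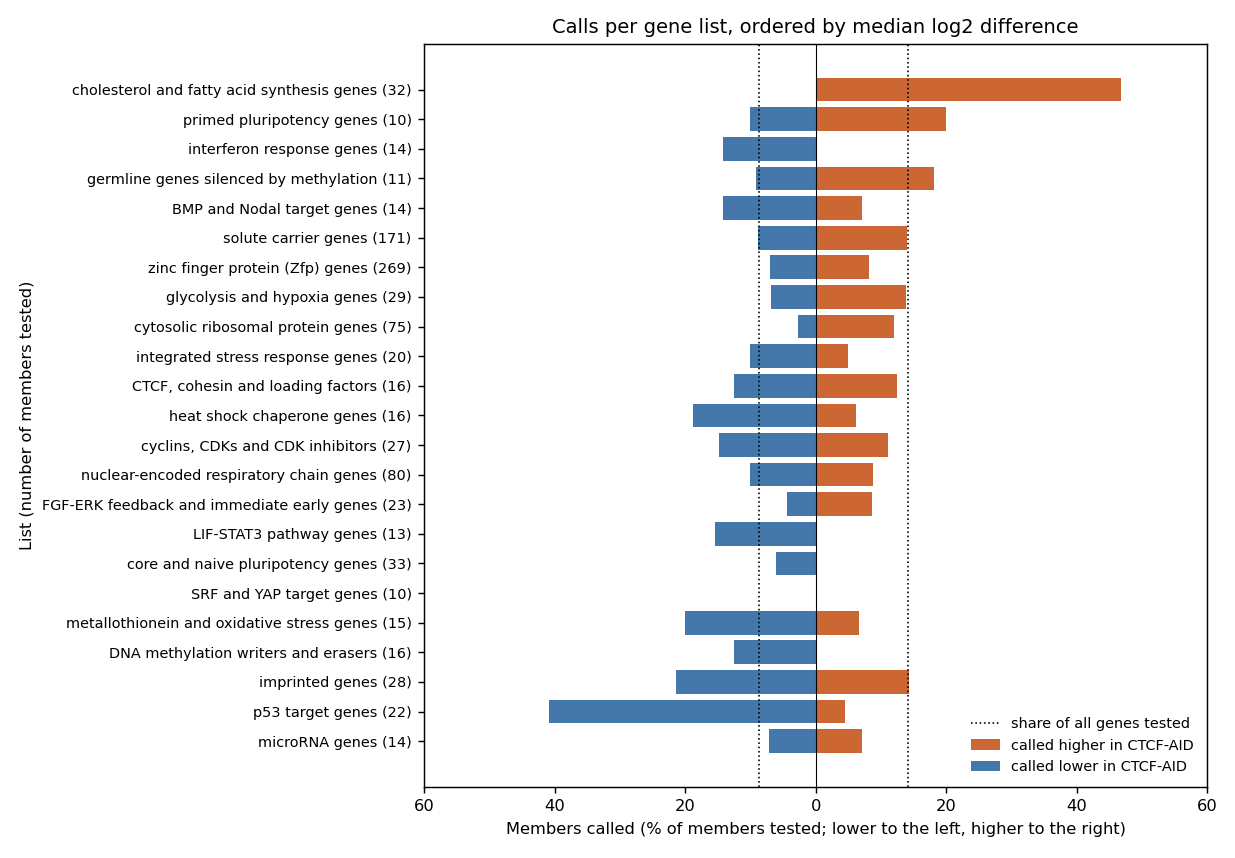
Share of tested members (in percent, number tested in brackets) called higher (right) or lower (left) in CTCF-AID, for the 23 lists with at least 10 genes tested. The dotted lines are the shares of all genes tested, 14.1% higher and 8.72% lower. The bar of cholesterol and fatty acid synthesis genes reaches furthest to the right and that of p53 target genes furthest to the left.

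The differences between the lines were also looked for in mitotic cells, collected after RO-3306 (10 µM, 4 h) and nocodazole (50 ng/ml, 4 h), in 3 other libraries of each line. There 1541 genes were called higher in CTCF-AID (16.1%) and 1279 lower (13.4%). Of the 2184 genes called in asynchronous cells, 2125 (97.3%) had the same sign in mitotic cells, against 79.2% of all shared genes. Among them 983 of the higher and 527 of the lower genes were also called in mitosis, and 2 were called in opposite directions. In a test of the line difference between the 2 stages, 3 genes passed (0.0313% of those tested, limma, adjusted p below 0.1; 725 at an unadjusted p below 0.05), and 65 with the replicate block. Hormad2 differed by 1.12, Btbd19 by −1.57, Fdft1 by 0.83 and Ddx3y by −0.68 in mitotic cells. Of the 10 highest and 10 lowest genes in asynchronous cells, Trim17 (0.29; limma, adjusted p = 0.178) and Aard (−0.37; 0.238) were not called in mitotic cells, and the others were.

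The shifted chromosomes kept their direction through mitosis and release. In the 7 other stages that both lines share, the median difference of chromosome 1 ran from 0.28 to 0.42, of chromosome 8 from 0.21 to 0.36, and of chromosome 11 from 0.22 to 0.33. The segments of chromosomes 14 and 17 ran from 0.34 to 0.61 and from 0.39 to 0.58, the lower segment of chromosome 13 from −0.36 to −0.20, and chromosome Y from −0.83 to −0.59. The 13 unshifted autosomes stayed between −0.07 and −0.02. The highest values of chromosomes 1, 8 and 11, of the chromosome 14 segment and of the unshifted autosomes came from 50 min, a stage with 1 CCNA-GFP library. Without it they were 0.36, 0.34, 0.31, 0.51 and −0.04. In asynchronous CTCF-AID cells with IAA, set against the same CCNA-GFP libraries, the medians were 0.29, 0.27 and 0.29 on chromosomes 1, 8 and 11. Both arms share these controls, so their values are only given side by side.

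**Figure D5:**
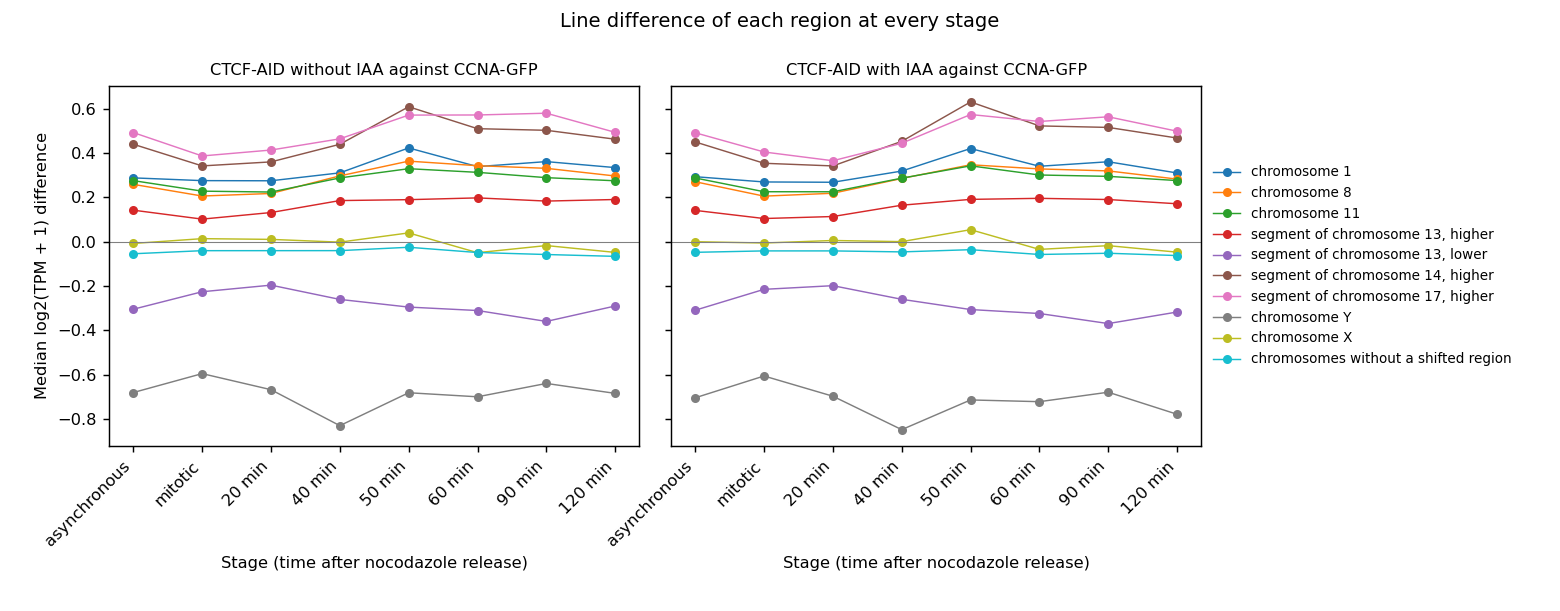
Median log2(TPM + 1) difference from CCNA-GFP of each shifted region, of chromosomes X and Y and of the unshifted autosomes at each stage, for CTCF-AID without IAA (left) and with IAA (right). At 50 min CCNA-GFP has 1 library. Without IAA, chromosome 1 lies between 0.28 and 0.42 at the 7 stages other than asynchronous, and the unshifted autosomes lie between −0.07 and −0.02.

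Genes listed for only 1 line were not tested, since the tables were filtered apart. Of 663 genes listed for CTCF-AID only, 95 lie on chromosome 11 (14.3%, against 8.97% of shared genes), 60 on chromosome 1 (9.05% against 5.29%) and 58 on chromosome 8 (8.75% against 5.58%). Of 337 listed for CCNA-GFP only, 12, 8 and 5 lie there. The highest of the first kind were Platr5 (2.13 ± 1.51 TPM, SD, n = 3), Hist1h2be (1.74), Ephx2 (1.61), Oas1a (1.39) and G6pc3 (1.38). Among the second kind Rpl41 (17.3 ± 3.75 TPM) and Eef1a1 (10.1 ± 1.20 TPM), which encode abundant parts of the translation machinery and have many pseudogene copies, stood highest, so that a missing row is not a sign of a silent gene. They were followed by 1700108F19Rik (5.40), Cd59b (2.80) and Spink1 (2.53).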

How the data were processed

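Pre-mRNA was measured by ribo-depleted, stranded RNA-seq. The authors used STAR (mm10) and RSEM with Gencode vM12 plus 1 pre-mRNA isoform per gene, and deposited TPM of RefSeq curated genes whose mean exceeded 0.5 TPM either in asynchronous cells or in 2 or more samples taken after mitosis. In the deposited tables each library carries a factor of its own (100% of low values are whole multiples of a step, within 0.02 of a step), which cancels on scaling. TPM hold no counts, so depth is unknown and DESeq2, the study's test, could not be run. No column was left unused. The asynchronous CTCF-AID headers are garbled ("Asy" is partly overwritten by a replicate tag) and were read with the help of the titles.

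Shared genes (9574, 9563 with a position in Gencode vM21) were scaled to a sum of 23402.6 TPM, and log2(TPM + 1) was fitted with limma 3.58.1 (lmFit, eBayes with a trend) in R 4.3.3, unpaired, with Benjamini-Hochberg adjustment over all shared genes. The interaction used 12 libraries. Equal replicate numbers paired the libraries, since deviations from the line mean correlated at 0.555, 0.732 and 0.646 for equal and at most 0.115 for other numbers. No library was a copy of another. Segments came from a piecewise-constant fit (at least 15 genes at 1 TPM or more, shift of at least 0.15). The calling of genes was tested on simulated data with 200 of 9574 genes changed. It recovered 0% of them at a log2 change of 0.3, 78% at 0.5 and 97% at 1.0. False calls made up 0%, 7.69% and 8.49% of the calls, and the first value says nothing, since no changed gene was recovered there. These shares do not carry over to the real data, where 2184 genes were called. The adjusted p depends on how many genes change, and the simulated noise had no pairing of replicates.

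The members, gene lists and tests were chosen with earlier results of these data known. Genes named follow a rule: Ctcf, Ccna2, the ES markers, the 10 highest and 10 lowest called genes without overlap, up to 2 called members per list and direction, Y-linked genes, the 3 leading genes of chromosome 1 and the 5 highest genes of each single table. Others were named after their values were seen. Called members of the ribosomal, respiratory chain, Zfp and solute carrier lists are given by counts alone, the histone, microRNA and small nucleolar RNA lists are not described, and a few further genes are not reported here. Alternatives were pseudocounts of 0.1 and 0.5, a filter at 1 TPM, TPM as deposited, other normalizations, the replicate block, all libraries in the fit, stricter thresholds, each library left out and, added after the data were seen, 3 treatments of the shifted regions.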

Additional observations from a re-analysis of the deposited data

Results flagged for a closer look

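The line difference of 3 genes differed between asynchronous and mitotic cells (interaction in limma, 3 against 3 in each stage). Tmem161a, a membrane protein gene of chromosome 8, stood at 1.62 ± 0.12 TPM (SD, n = 3) in CCNA-GFP and 2.13 ± 0.09 TPM in CTCF-AID in asynchronous cells. In mitotic cells it stood at 1.24, 1.22 and 1.27 TPM and at 4.47, 4.12 and 3.92 TPM. Its asynchronous minus mitotic difference was −1.01 in the fit on all 12 libraries (limma, adjusted p = 0.00112), and it was called in 14 of 14 alternatives. Fits of the single stages gave 0.25 in asynchronous and 1.20 in mitotic cells, so values of the joint fit need not equal their difference. Wdr77, a partner of the arginine methyltransferase Prmt5, stood at 7.74 ± 0.37 and 8.04 ± 0.47 TPM in asynchronous cells, and in mitotic cells at 3.12, 3.23 and 2.45 TPM in CCNA-GFP and at 8.06, 6.33 and 7.72 TPM in CTCF-AID. Its value was −1.07 (limma, adjusted p = 0.0551), called in 5 of 14 alternatives. Pkmyt1, an inhibitory kinase of CDK1, stood at 0.877 ± 0.065 and 0.931 ± 0.119 TPM in asynchronous cells, and in mitotic cells at 0.855, 0.655 and 0.707 TPM and at 1.94, 1.98 and 1.67 TPM. Its value was −0.73 (limma, adjusted p = 0.0551), called in 5 of 14 alternatives. No other gene passed in the unblocked fit on all 12 libraries, although others did with a library left out, and the cause of these differences was not tested.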

How the results depend on the processing

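Higher and lower calls numbered 218 and 84 on TPM as deposited, 7 and 9 at an adjusted p below 0.05 with a difference above 1, and 123 and 387 on genes outside the shifted regions alone. They numbered 226 and 702 with the median of each region removed, which turned their balance, 2018 and 397 with scaling on the unshifted autosomes, and 1955 and 1537 with the replicate block. Leaving out 1 library gave 734 to 1416 higher and 321 to 1025 lower. Genes whose line difference differed between stages numbered 65 with the block and 1 to 15 with 1 library left out, 15 of them without CCNA-GFP mitotic replicate 2. Of the genes named by rule, the block changed the call of Pou5f1 alone. Of those named after their values were seen, Zfp42, Peg3 and Meg3 gained a call.

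Medians of chromosomes 1, 8 and 11 kept their sign in all 17 settings in which they were computed. Removal of the region medians and the fit outside the shifted regions are not among these. They were 0.43, 0.40 and 0.42 with a pseudocount of 0.1, 0.35, 0.32 and 0.34 with 0.5, 0.32, 0.29 and 0.30 for genes at 1 TPM or more, 0.31, 0.28 and 0.30 on TPM as deposited, and 0.39, 0.35 and 0.37 with scaling on the unshifted autosomes. With all libraries in the fit chromosome 11 was at 0.29. Leaving out 1 library gave 0.268 to 0.303 for chromosome 1, 0.241 to 0.282 for chromosome 8 and 0.264 to 0.289 for chromosome 11. Ccna2 turned to 0.0113 with scaling on the unshifted autosomes and Klf4 to −0.0858 without CCNA-GFP replicate 2. The cause of these changes was not tested. With 3 libraries per line and no counts, the spread between replicates sets what can be called, with a median standard error of 0.088.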
